A study of Homo sapiens with 24 samples.

Results

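The 9 genes described here code for secreted and membrane-bound enzymes that cut the extracellular matrix, for their natural inhibitors, and for the enzyme and receptor that start plasminogen activation at the cell surface. They were taken from the 35993 gene symbols of the count table by name: the collagenases MMP1 and MMP13, the gelatinase MMP2, the membrane-anchored metalloproteinase MMP14, the tissue inhibitors TIMP1, TIMP2 and TIMP3, urokinase (PLAU) and the urokinase receptor (PLAUR). All 9 symbols were found. A minimum of reads, set by edgeR from the library sizes, was passed by 9 of 9 in RT-112 and by 7 of 9 in J82, where MMP1 (0 to 11 reads per library) and MMP13 (0 reads in all 12 libraries) were too low to test.

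Matrix metalloproteinases are made as inactive proenzymes and are held in check by the TIMPs, which bind the active site. MMP14 sits in the plasma membrane, where it cuts collagen and, together with TIMP2, activates proMMP2. Urokinase bound to its receptor turns plasminogen into plasmin, a protease that degrades fibrin and matrix proteins and can activate several proMMPs. The same enzymes are widely studied in bladder cancer because invasion into the muscle layer requires passage through matrix.

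The data are RNA sequencing counts from J82 and RT-112, established human bladder cancer cell lines. Each was sequenced as the parental line and as 3 lines derived from it: CD44 Low, with little CD44, CD44 High, with much CD44, and CD44v6, with much of the CD44 variant form that includes variant exon 6. CD44 is the main cell surface receptor for hyaluronan. Each of the 8 groups had 3 libraries, which the series' design calls biological replicates. No treatment or dose is named for any group, and how the derived lines were established, or whether each is 1 clone or a pool, is not given in the sources used here. A group therefore stands for 1 derived line. The p-values rest on the spread between libraries within groups, estimated over all groups of a fit together. They do not measure the spread between separately derived lines.

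Library totals ran from 16752825 to 24419670 reads. CD44 itself, in CPM (reads of the gene scaled to a common library size with TMM factors), was 254 to 309 in J82 CD44 Low, 396 to 489 in J82 parental, 707 to 764 in J82 CD44 High and 612 to 1072 in J82 CD44v6. In RT-112 it was 119.7 to 152 in CD44 Low, 293 to 347 in parental, 351 to 491 in CD44 High and 378 to 516 in CD44v6. These counts sum all CD44 forms, so they check the Low and High labels and not the variant. Keratins were abundant in both lines, the summed level of 6 epithelial markers being 6445 to 10590 CPM in J82 and 9495 to 14180 CPM in RT-112. EPCAM (0.780 to 3.18 CPM) and CDH1 (0.470 to 6.47 CPM), however, were near absent from J82. Of 8 urothelial markers UPK2, UPK3A and KRT5 had no read in J82. The 2 with a mean over 1 CPM there were PPARG (19.8 to 53.5 CPM) and FOXA1 (1.67 to 5.83 CPM). In RT-112 UPK3A had no read, and 7 of the 8 had a mean over 1 CPM, with KRT5 at 329.5 to 820 CPM. Of the leukocyte markers PTPRC had 0 to 3 reads per library in J82 and none in RT-112, while CD68 was 76.9 to 216 CPM in J82 and 6.93 to 13.7 CPM in RT-112. Of the fibroblast markers DCN had no read in either line, LUM was 8.80 to 27.4 CPM in J82 and 116 to 268 CPM in RT-112, and COL1A2 (23.1 to 99.7 CPM) and PDGFRB (5.32 to 24.9 CPM) were present in J82. The part of other cells in the results was not tested. On the first principal component of all genes, 5 libraries stood apart from their groups: J82 CD44v6 replicate 2 (-12.4, the others at 18.4 and 18.0), RT-112 parental replicate 1 (15.3, the others at -16.2 and -20.5), RT-112 CD44 Low replicate 3 (-17.1, the others at -59.4 and -46.4), RT-112 CD44 High replicate 3 (-6.15, the others at 55.4 and 45.2) and RT-112 CD44v6 replicate 3 (45.0, the others at -5.84 and 10.8). The last 2 each lay beside the other group's libraries, and whether their labels are exchanged cannot be told from gene counts, so every RT-112 CD44 High and CD44v6 value, and the comparison between these groups, carries that limit. For the 9 members, calls that rest on these 5 libraries are given with and without them. Values for genes of the related lists come from the full fits only and were not checked in this way.

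Promoters are shown for the 3 members that were higher in J82 cells with much CD44, so that their sequence can be set beside their values. Each line gives RefSeq bases on GRCh38.p14 from 250 before to 50 after the start of transcription, all on the plus strand: PLAU at chr10:73910360-73910659, TIMP1 at chrX:47582186-47582485 and TIMP3 at chr22:32801455-32801754. Capitals mark GC boxes, the letters GGGCGG or, on the opposite strand, CCGCCC.
PLAU: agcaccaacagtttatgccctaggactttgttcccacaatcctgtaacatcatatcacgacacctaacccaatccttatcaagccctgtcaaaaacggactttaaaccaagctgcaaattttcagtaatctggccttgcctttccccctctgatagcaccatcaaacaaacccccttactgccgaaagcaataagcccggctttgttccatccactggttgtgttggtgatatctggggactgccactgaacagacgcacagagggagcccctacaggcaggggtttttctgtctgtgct
TIMP1: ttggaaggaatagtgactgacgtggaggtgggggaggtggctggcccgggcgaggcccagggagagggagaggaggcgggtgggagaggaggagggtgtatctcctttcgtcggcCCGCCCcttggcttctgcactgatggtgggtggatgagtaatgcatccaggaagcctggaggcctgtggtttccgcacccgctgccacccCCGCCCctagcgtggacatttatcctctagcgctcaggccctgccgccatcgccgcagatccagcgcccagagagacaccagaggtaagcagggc
TIMP3: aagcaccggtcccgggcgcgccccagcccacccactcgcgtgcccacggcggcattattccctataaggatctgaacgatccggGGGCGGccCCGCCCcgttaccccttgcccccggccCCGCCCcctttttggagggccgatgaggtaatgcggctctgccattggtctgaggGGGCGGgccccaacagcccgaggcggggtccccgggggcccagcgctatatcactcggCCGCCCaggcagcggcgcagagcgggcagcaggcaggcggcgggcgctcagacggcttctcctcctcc

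Only 1 annotated start per gene was searched, so these values do not cover any other start of the same gene. The PLAU window held no GC box, that of TIMP1 held 2 and that of TIMP3 held 5. Of 27305 promoters of this length, 44.6% held at least 1. GC content was 48.7% for PLAU, 65.0% for TIMP1 and 72.7% for TIMP3, beside a median of 58.3% over all promoters, and the 3 windows held 5, 16 and 31 CpG dinucleotides beside a median of 14. Neither TATAAA nor the AP-1 motif TGAGTCA, each searched on both strands, was found in these 3 windows. Among the 5 members matched in the RefSeq table, which also include MMP14 and PLAUR, the AP-1 letters occurred in PLAUR alone, starting 186 bases before the start; 4.92% of all promoters held them and 11.95% held TATAAA. No 2 motif matches overlapped. MMP1, MMP2, MMP13 and TIMP2 were not matched.

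In the parental cells the lines carried different matrix protease sets. RT-112 had far more MMP2, MMP14, MMP1 and MMP13, and more TIMP3, while J82 had more TIMP2. Of the 7 members that passed the read minimum in both lines, 4 differed between the parental lines in the fit on all 24 libraries, MMP2, MMP14 and TIMP3 lower and TIMP2 higher in J82, where 62.0% of all 17438 genes tested differed. All 4 calls held without RT-112 parental replicate 1. MMP2 was 2.54, 1.70 and 1.20 CPM in J82 parental replicates 1 to 3 and 133, 163 and 134 CPM in RT-112 parental. MMP14 was 13.7, 12.3 and 12.6 CPM in J82 and 282, 268 and 236 CPM in RT-112. For both genes every RT-112 library of every group lay above every J82 library. The log2 difference, J82 minus RT-112, was -6.28 (SE 0.38, adjusted p = 3.41e-12) for MMP2 and -4.35 (SE 0.20, adjusted p = 2.89e-14) for MMP14.

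MMP13, which cuts fibrillar collagens, had no read in any J82 library. Against a floor of 3 reads summed over the J82 parental group (0.0501 CPM), RT-112 parental was at least 201-fold higher. MMP1, the interstitial collagenase, had 5, 3 and 9 reads in J82 parental and 5.50, 4.04 and 5.15 CPM in RT-112 parental. Neither gene passed the read minimum in J82, so no test is given for them. In RT-112 both collagenases were present at low levels.

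TIMP2 was the 1 member called higher in J82 in the fit on all 24 libraries: 120.3, 94.4 and 115 CPM in the parental libraries against 28.6, 36.8 and 42.7 CPM in RT-112 (log2 difference 1.61, SE 0.22, adjusted p = 1.69e-06). TIMP3, an inhibitor that stays bound to the matrix, was 196, 209 and 230.0 CPM in J82 and 490.0, 458 and 434 CPM in RT-112 (log2 difference -1.12, SE 0.12, adjusted p = 3.02e-08). TIMP2 and TIMP3 each formed 2 ranges that did not overlap, in opposite order. TIMP1 (-0.11, SE 0.10, adjusted p = 0.365), PLAU (0.29, SE 0.23, adjusted p = 0.292) and PLAUR (-0.01, SE 0.20, adjusted p = 0.967) did not pass the test. PLAU did pass in an edgeR fit of these 2 groups alone (0.30, adjusted p = 0.0117). It was 32.9 to 36.1 CPM in J82 parental and 25.9 to 31.1 CPM in RT-112 parental. The 95% interval of the difference ran from -0.43 to 0.40 for PLAUR, from -0.33 to 0.10 for TIMP1 and from -0.19 to 0.78 for PLAU.

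**Figure D1:**
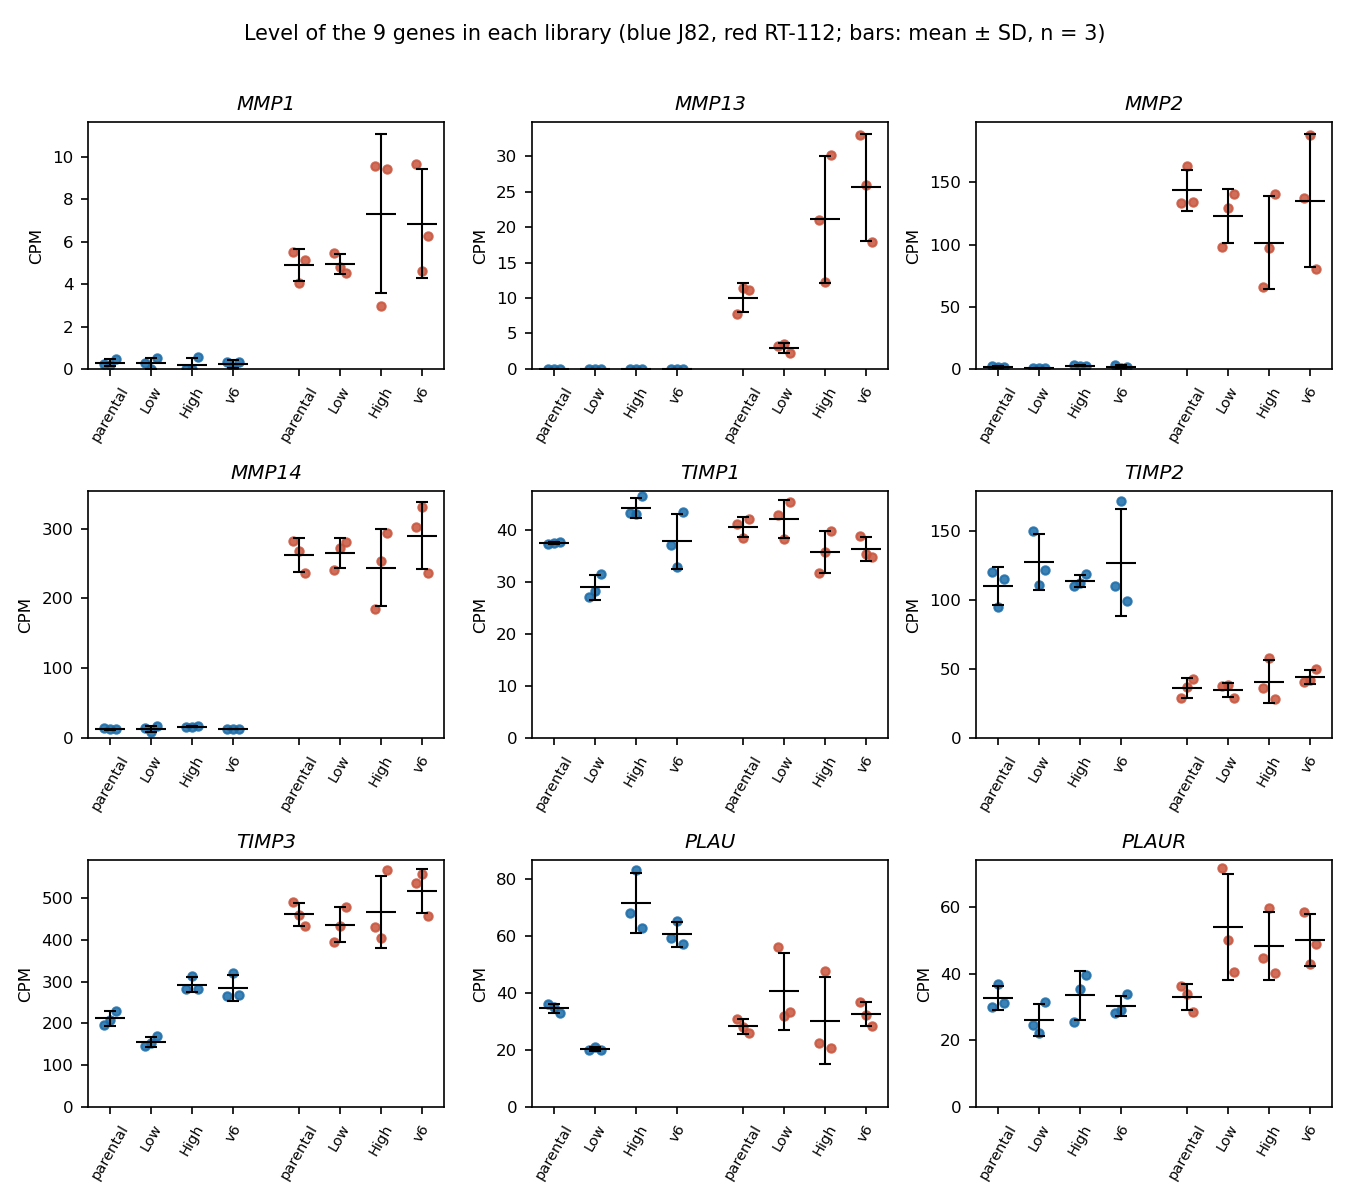
Level of each of the 9 genes in every library (points, CPM on the vertical axis of each panel, J82 in blue and RT-112 in red), with the mean and SD of 3 libraries as bars. PLAU and TIMP3 step up from CD44 Low through parental to CD44 High in J82, MMP13 does so in RT-112, and MMP2 and MMP14 lie near the bottom in all 12 J82 libraries.

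Levels of different genes can be set side by side only per length, and dividing by the length of the merged exons in GENCODE 29 gave CPM per kilobase. In J82 parental cells the inhibitors led, TIMP3 at 46.0, TIMP2 at 27.0 and TIMP1 at 25.8 CPM per kilobase. PLAUR followed at 14.8 and PLAU at 12.9, and the metalloproteinases came last, MMP14 at 3.44, MMP2 at 0.383 and MMP1 at 0.145. In RT-112 parental cells TIMP3 also led at 100.1 CPM per kilobase, but MMP14 came next at 70.2 and MMP2 stood at 30.3, above TIMP1 at 27.9, while TIMP2 was at 8.84, below PLAUR at 14.96 and PLAU at 10.6. MMP13 (3.55) and MMP1 (2.49) were lowest.

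The pair that acts together on proMMP2 was therefore present in opposite proportions. TIMP2 per length was 6.33 to 12.3 times MMP14 over the 12 J82 libraries and 0.0882 to 0.209 times MMP14 over the 12 RT-112 libraries. These 2 ranges did not overlap. The exon lengths come from an annotation that may not be the one used for counting.

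**Figure D2:**
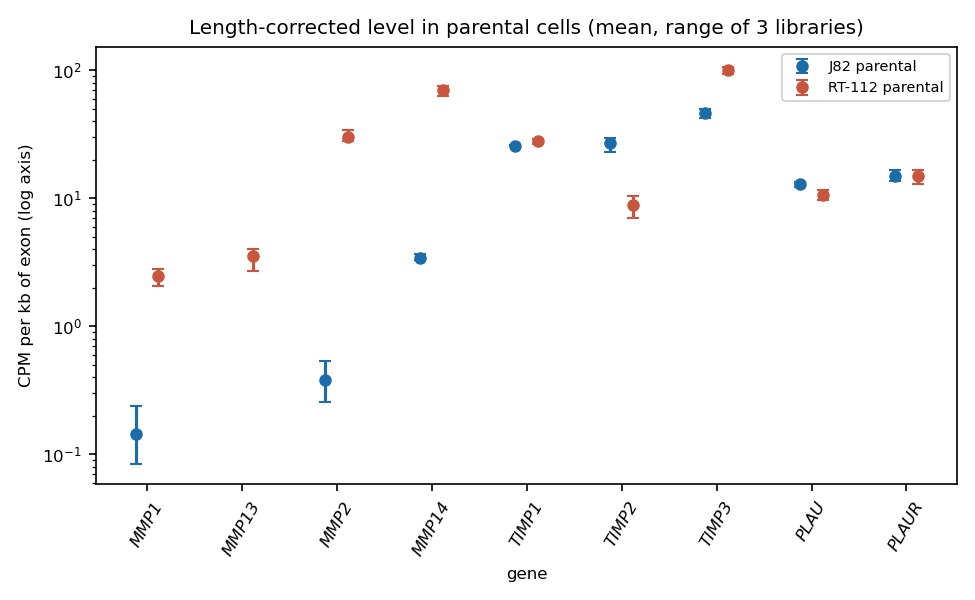
Level per kilobase of merged exon (log axis, CPM per kb) of the 9 genes in J82 parental (blue) and RT-112 parental (red) cells; points are means and bars the range of 3 libraries. TIMP1, PLAU and PLAUR lie close together in the 2 lines, MMP2 and MMP14 lie far apart, and MMP13 has no J82 point because it had no read there.

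Within J82, urokinase was lowest in CD44 Low and highest in CD44 High and CD44v6. PLAU, the serine protease that activates plasminogen, was 20.0, 21.2 and 20.1 CPM in CD44 Low, 36.1, 35.0 and 32.9 CPM in parental, 68.2, 83.3 and 63.0 CPM in CD44 High and 59.5, 65.4 and 57.1 CPM in CD44v6. CD44 Low lay below parental without overlap, and CD44 High and CD44v6 lay above parental without overlap but overlapped each other. CD44 High exceeded CD44 Low 3.51-fold (log2 1.81, SE 0.11, adjusted p = 3.80e-07) and CD44v6 exceeded it 2.98-fold (log2 1.57, SE 0.11, adjusted p = 1.98e-06). These comparisons share the CD44 Low libraries. Against parental cells PLAU fell by 0.77 (log2, SE 0.11, adjusted p = 0.00139) in CD44 Low and rose by 1.05 (SE 0.11, adjusted p = 0.000641) in CD44 High and 0.81 (SE 0.11, adjusted p = 0.00358) in CD44v6 (0.75, adjusted p = 0.0116, without CD44v6 replicate 2). Each of these 5 calls stayed past the threshold whichever library was left out. Without J82 CD44v6 replicate 2 the log2 change against CD44 Low was 1.53 (adjusted p = 5.48e-06).

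In a mixed population, more cells with PLAU RNA and more PLAU RNA per cell cannot be told apart in these libraries, and the same holds for the other members. PLAU shares 771 exon bases with C10orf55, a gene on the opposite strand, and whether counting used strand is not given in the sources used here. C10orf55 summed to 585 reads over the 24 libraries beside 18999 for PLAU, with 18 in J82 CD44 Low, 46 in parental, 129 in CD44 High and 86 in CD44v6. The part of this overlap in the PLAU counts was not tested.

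TIMP3 showed the same order in J82 with smaller steps. It was 146, 152 and 169 CPM in CD44 Low, 196, 209 and 230.0 CPM in parental, 282, 313 and 283 CPM in CD44 High and 266, 321 and 269 CPM in CD44v6. Again CD44 Low was lowest, parental lay between, and only CD44 High and CD44v6 overlapped. TIMP3 rose 1.88-fold from CD44 Low to CD44 High (log2 0.91, SE 0.10, adjusted p = 5.28e-05) and 1.84-fold from CD44 Low to CD44v6 (log2 0.88, SE 0.10, adjusted p = 0.000102; 0.79, adjusted p = 0.000185, without CD44v6 replicate 2). Against parental it fell by 0.45 (adjusted p = 0.0207) in CD44 Low and rose by 0.47 (adjusted p = 0.0229) in CD44 High and 0.43 (adjusted p = 0.0402) in CD44v6. The 3 comparisons with parental were close to the threshold: leaving out 1 library kept the call in 2, 2 and 1 of 6 fits, with adjusted p up to 0.103 and 0.141, without parental replicates 3 and 1, and 0.203, without parental replicate 1. The CD44v6 call was also lost without the read minimum (adjusted p = 0.0623) and in a fit of these 2 groups alone (adjusted p = 0.0958). Without CD44v6 replicate 2, TIMP3 in CD44v6 against parental was 0.34 (adjusted p = 0.121).

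TIMP1, a soluble inhibitor of most MMPs, was 27.1, 28.3 and 31.7 CPM in J82 CD44 Low, 37.5, 37.5 and 37.9 CPM in parental, 43.3, 43.2 and 46.6 CPM in CD44 High and 37.3, 33.0 and 43.6 CPM in CD44v6. CD44 Low was below all other J82 libraries and CD44 High above parental, while CD44v6 spanned the parental values. TIMP1 rose by 0.62 from CD44 Low to CD44 High (log2, SE 0.11, adjusted p = 0.00186) and by 0.39 from CD44 Low to CD44v6 (SE 0.11, adjusted p = 0.0370). The former call held in 6 of 6 fits that left out 1 library. The latter held in 2 of 6, with adjusted p from 0.00793, without CD44v6 replicate 2, to 0.116, without CD44 Low replicate 2; it was also lost without the read minimum (adjusted p = 0.0625) and in a fit of these 2 groups alone (adjusted p = 0.187). Against parental no TIMP1 difference passed the test (CD44 Low -0.38, adjusted p = 0.0631, and CD44 High 0.24, adjusted p = 0.287). CD44 Low did pass with DESeq2 (adjusted p = 0.0232), in an edgeR fit of the 2 groups alone (adjusted p = 0.0360) and without CD44 Low replicate 3 (-0.45, adjusted p = 0.0455).

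TIMP2, which both inhibits MMPs and takes part in proMMP2 activation, gave 94.4 to 171 CPM over the J82 libraries and overlapped between all groups. Its CD44v6 replicate 2 was the highest J82 value at 171 CPM, beside 109.9 and 99.3 in the other CD44v6 libraries, and parental replicate 2 was the lowest at 94.4 CPM. CD44 High against CD44 Low gave -0.16 on the log2 scale (95% interval -0.54 to 0.23, adjusted p = 0.609).

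MMP2, the gelatinase that cuts basement membrane collagen, was low in J82, at 18 to 70 reads per library. It was 1.002, 1.08 and 1.09 CPM in CD44 Low, 2.54, 1.70 and 1.20 in parental, 3.01, 2.25 and 2.19 in CD44 High and 3.25, 1.07 and 1.37 in CD44v6. The CD44 High libraries were all above the CD44 Low libraries. The log2 difference of 1.24 (SE 0.43) did not pass the edgeR test (adjusted p = 0.0678), although it did with DESeq2 (adjusted p = 0.0459) and in a fit of these 2 groups alone (adjusted p = 0.0395). MMP14 in J82 was 8.58 to 17.1 CPM, with CD44 High at 16.0, 15.4 and 17.1 and CD44 Low at 14.4, 8.58 and 16.6 (log2 difference 0.30, 95% interval -0.11 to 0.70, adjusted p = 0.312).

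PLAUR, the receptor that holds urokinase at the cell surface, was 24.6, 22.1 and 31.5 CPM in J82 CD44 Low, 30.1, 36.7 and 31.1 in parental, 25.3, 35.5 and 39.5 in CD44 High and 28.3, 29.03 and 33.8 in CD44v6. All 4 groups overlapped. The log2 change from CD44 Low to CD44 High was 0.36 (SE 0.17, 95% interval -0.0037 to 0.73, adjusted p = 0.170). Per length, the receptor exceeded its ligand 1.28 to 1.91 times in J82 CD44 Low and 1.02 to 1.28 times in parental, whereas in CD44 High the ratio of PLAUR to PLAU was 0.453 to 0.765 and in CD44v6 it was 0.542 to 0.724. The ratio per length was below 1 in the 6 libraries of these 2 groups and in no other library. Over the 12 RT-112 libraries it was 1.35 to 2.44. Where the ratio crosses 1 depends on the exon lengths used. In CPM without length, PLAUR was also below PLAU in J82 parental replicate 1 (30.1 against 36.1) and replicate 3 (31.1 against 32.9).

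Counted over the members, 3 of the 7 tested genes were higher in the J82 CD44 High cells relative to CD44 Low and none were lower, where 15.7% of all 15951 genes tested changed. CD44v6 relative to CD44 Low had the same count, where 9.58% changed. The median log2 difference over the 7 members was 0.62 for CD44 High against CD44 Low and 0.39 for CD44v6 against CD44 Low, beside -0.016 and -0.0083 over all genes. Against parental, 2 of 7 were lower in CD44 Low (5.34% of all genes changed), 2 higher in CD44 High (2.94%) and 2 higher in CD44v6 (2.60%), PLAU and TIMP3 each time. Between CD44v6 and CD44 High no member passed the edgeR test, nor did any other gene (0%). PLAU alone had an unadjusted p under 0.05 there (log2 difference -0.24, 95% interval -0.47 to -0.01, adjusted p = 0.517), beside 9.63% of all genes. DESeq2 called no member and 74 genes in all.

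**Figure D3:**
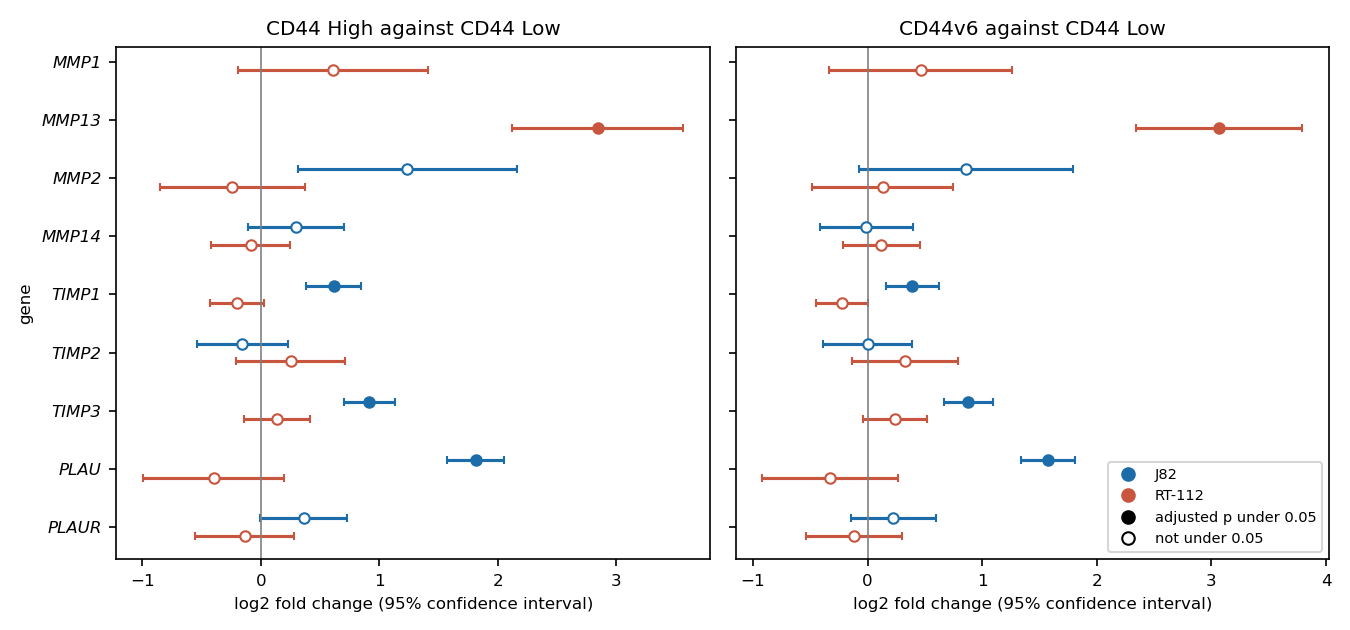
Log2 fold change (horizontal axis) of each gene in CD44 High (left) and CD44v6 (right) against CD44 Low, J82 in blue and RT-112 in red, with 95% confidence intervals; filled points have an adjusted p under 0.05. PLAU, TIMP3 and TIMP1 are filled in J82, and MMP13 is the 1 filled point of RT-112.

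In RT-112 the member that moved with CD44 was the collagenase MMP13. It was 3.30, 3.51 and 2.22 CPM in CD44 Low (77, 78 and 41 reads), 7.71, 11.4 and 11.1 CPM in parental, 21.0, 12.2 and 30.1 CPM in CD44 High and 33.0, 25.9 and 18.0 CPM in CD44v6. All CD44 Low libraries lay below parental, and all CD44 High and CD44v6 libraries lay above parental, CD44 High replicate 2 by the smallest margin. CD44v6 was 8.40-fold above CD44 Low (log2 3.07, SE 0.34, adjusted p = 0.000171; 3.28, adjusted p = 0.000304, without CD44v6 replicate 3). In CD44 High against CD44 Low, where the log2 change was 2.84, leaving out CD44 High replicate 3, which stood apart, gave 2.49 (adjusted p = 0.000331). Without CD44 Low replicate 3 the changes were 2.68 (adjusted p = 0.00144) in CD44 High and 2.91 (adjusted p = 0.00108) in CD44v6.

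Against parental, MMP13 fell by 1.77 in RT-112 CD44 Low (log2, SE 0.34, adjusted p = 0.0149). This call held in 2 of 6 fits that left out 1 library, with adjusted p up to 0.0685 without parental replicate 2, and was lost as well without parental replicate 3 and CD44 Low replicates 1 and 2. It was -1.90 (adjusted p = 0.0338) without parental replicate 1 and -1.61 (adjusted p = 0.0354) without CD44 Low replicate 3. In CD44 High (1.08, SE 0.30, adjusted p = 0.170) and CD44v6 (1.30, SE 0.30, adjusted p = 0.0748) the difference from parental did not pass the test. DESeq2 put both past the threshold (adjusted p = 0.0298 and 0.00165), and CD44v6 also passed in an edgeR fit of the 2 groups alone (adjusted p = 0.00546). The CD44 High value was 1.35 (adjusted p = 0.0463) without CD44 High replicate 2 and 0.72 (adjusted p = 0.193) without CD44 High replicate 3.

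MMP1, the other collagenase, was 5.49, 4.82 and 4.55 CPM in RT-112 CD44 Low, 9.58, 2.99 and 9.43 CPM in CD44 High and 9.68, 4.61 and 6.28 CPM in CD44v6. CD44 High replicate 2 was the lowest of all 12 libraries, the other CD44 High libraries among the highest. The log2 change from CD44 Low to CD44 High was 0.61 (SE 0.37, adjusted p = 0.290) with it and 0.98 (adjusted p = 0.0270) without it. Without CD44 High replicate 3 it was 0.38 (adjusted p = 0.551).

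MMP2 and MMP14, abundant in RT-112, overlapped between groups. MMP2 was 98.4, 129 and 141 CPM in CD44 Low and 66.1, 97.4 and 141 CPM in CD44 High (log2 difference -0.24, 95% interval -0.85 to 0.37, adjusted p = 0.608), and it ran from 80.5 to 188 CPM in CD44v6. MMP14 was 241, 273 and 281 CPM in CD44 Low and 184, 254 and 294 CPM in CD44 High (-0.08, 95% interval -0.42 to 0.25, adjusted p = 0.759). For both, CD44 High replicate 1 was the lowest of the 12 libraries. Without CD44 High replicate 3 the differences were -0.57 for MMP2 (adjusted p = 0.167) and -0.25 for MMP14 (adjusted p = 0.262), still not past the threshold.

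The inhibitors gave no call in RT-112. TIMP1 was 43.0, 38.3 and 45.5 CPM in CD44 Low, 31.8, 35.9 and 39.9 CPM in CD44 High and 39.0, 35.4 and 34.8 CPM in CD44v6, and the log2 differences from CD44 Low were -0.20 (95% interval -0.43 to 0.02, adjusted p = 0.209) and -0.22 (-0.45 to 0.0037, adjusted p = 0.166). TIMP3 ran from 395 to 479 CPM in CD44 Low, 405 to 566 in CD44 High and 457 to 557 in CD44v6. Its change from CD44 Low to CD44 High was 0.13 (SE 0.13, adjusted p = 0.519), and -0.03 without CD44 High replicate 3, when TIMP1 was at -0.29 (adjusted p = 0.0727) and TIMP2 at 0.45 (adjusted p = 0.116). TIMP2 was 28.3 to 57.9 CPM over the 12 libraries, its highest value in CD44 High replicate 2; CD44v6 lay above CD44 Low without overlap, a log2 difference of 0.33 that did not pass (adjusted p = 0.323).

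PLAU gave no call between the CD44 groups of RT-112. It was 56.3, 32.1 and 33.3 CPM in CD44 Low, 31.1, 28.2 and 25.9 in parental, 22.4, 47.8 and 20.9 in CD44 High and 36.8, 32.4 and 28.3 in CD44v6. CD44 Low replicate 1 and CD44 High replicate 2 were the high libraries. CD44 Low lay above parental without overlap, while CD44 High held both lowest values of the line. The log2 change from CD44 Low to CD44 High was -0.40 (SE 0.28, 95% interval -0.99 to 0.20, adjusted p = 0.359). It was -0.87 (adjusted p = 0.0186) without CD44 High replicate 2 and, with no call, -0.09 (adjusted p = 0.872) without CD44 Low replicate 1 and -0.19 (adjusted p = 0.673) without CD44 High replicate 3.

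PLAUR was lower in RT-112 parental, at 36.4, 33.8 and 28.6 CPM, than in every library of the derived lines: 71.5, 50.1 and 40.5 CPM in CD44 Low, 44.7, 59.6 and 40.3 in CD44 High and 58.5, 42.9 and 49.0 in CD44v6. The log2 differences from parental were 0.68 (SE 0.20, adjusted p = 0.0832), 0.54 (adjusted p = 0.283) and 0.56 (adjusted p = 0.193), none past the threshold in the edgeR fit on all 12 libraries. In edgeR fits of the 2 groups alone CD44 Low (0.68, adjusted p = 0.0433) and CD44v6 (0.57, adjusted p = 0.0293) passed. CD44 Low also passed with DESeq2 (adjusted p = 0.0193) and without CD44 Low replicate 3 (0.84, adjusted p = 0.0302), while without CD44 Low replicate 1 it was 0.43 (adjusted p = 0.314). The 3 comparisons share the parental libraries.

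Over the members, MMP13 was the 1 of 9 that was higher in RT-112 CD44 High than in CD44 Low (16.0% of all 15645 genes tested changed) and in CD44v6 than in CD44 Low (16.0%), and the 1 that fell in CD44 Low relative to parental cells (3.20%). The median log2 difference over the 9 members was -0.08 for CD44 High against CD44 Low and 0.13 for CD44v6 against CD44 Low, beside 0.016 and 0.0027 over all genes. Without CD44 High replicate 2, the count for CD44 High against CD44 Low was 3: MMP13, MMP1 and PLAU, the latter lower. In the edgeR fit on all 12 libraries no member passed against parental in CD44 High (0.511% of all genes did) or CD44v6 (0.614%). An unadjusted p under 0.05 was reached by 2 members in each, MMP13 and PLAUR, beside 12.3% and 15.3% of all genes. DESeq2 called 1 member in each, and 292 and 587 genes in all. Between CD44v6 and CD44 High no member was called by edgeR (0% of all genes) or DESeq2, and none had an unadjusted p under 0.05 (4.25% of all genes did). Without CD44 High replicate 2 edgeR called 431 genes in all, still with no member among them.

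**Figure D4:**
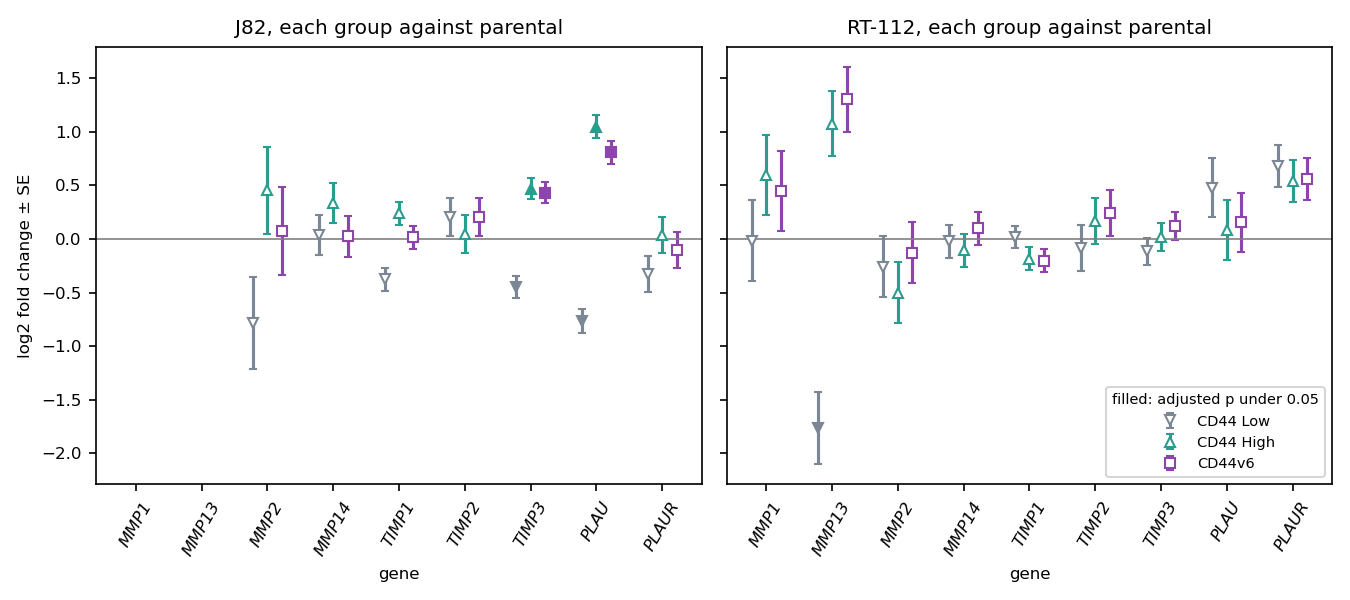
Log2 fold change against parental (vertical axis, bars are SE) of each gene in CD44 Low, CD44 High and CD44v6, J82 on the left and RT-112 on the right; filled symbols have an adjusted p under 0.05. In J82 the PLAU and TIMP3 symbols lie on opposite sides of 0 for CD44 Low and for the other 2 lines, and in RT-112 the MMP13 symbol of CD44 Low lies at -1.77; MMP1 and MMP13 were not tested in J82.

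Whether the lines responded differently was tested as the J82 change minus the RT-112 change. From CD44 Low to CD44 High, 3 of the 7 members tested in both lines differed, all with the larger increase in J82, where 10.7% of 17438 genes differed. The difference was 2.23 for PLAU (SE 0.33, adjusted p = 0.000149), 0.85 for TIMP1 (SE 0.15, adjusted p = 0.000796) and 0.81 for TIMP3 (SE 0.17, adjusted p = 0.00296). Without RT-112 CD44 High replicate 3 these values were 2.02, 0.94 and 0.98, with adjusted p of 0.000347, 0.000384 and 0.000227. Without RT-112 CD44 Low replicate 3 they were 2.36, 0.79 and 0.74, each still called.

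From CD44 Low to CD44v6 the same 3 genes differed (7.52% of all genes): PLAU by 1.89 (SE 0.33, adjusted p = 0.00103), TIMP1 by 0.60 (SE 0.15, adjusted p = 0.0157) and TIMP3 by 0.63 (SE 0.17, adjusted p = 0.0225). Without J82 CD44v6 replicate 2 they were 1.90, 0.76 and 0.60, each still called. Without RT-112 CD44v6 replicate 3 PLAU was 1.80 and TIMP1 0.57, both called, while TIMP3 was 0.55 (adjusted p = 0.0763). The TIMP3 call was also lost without RT-112 CD44 Low replicate 3 (0.56, adjusted p = 0.0559) and without J82 CD44 Low replicate 2 (adjusted p = 0.0512), and PLAU (2.01) and TIMP1 (0.55) kept theirs without the former. MMP13 has no such test because it had no J82 read, and MMP2, MMP14, TIMP2 and PLAUR did not pass in CD44 High against CD44 Low. MMP2 (1.51, adjusted p = 0.0878) did pass with DESeq2 (adjusted p = 0.0341) and without RT-112 CD44 High replicate 3 (1.83, adjusted p = 0.0303).

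In the comparisons with parental, no member differed between the lines by edgeR for CD44 Low (1.06% of all genes did), CD44 High (0.241%) or CD44v6 (0.138%). An unadjusted p under 0.05 was reached by 4, 3 and 1 of the 7 members, beside 13.8%, 9.43% and 14.4% of all genes. For CD44 Low the difference was -1.28 for PLAU (edgeR adjusted p = 0.0631, DESeq2 0.00874) and -1.04 for PLAUR (edgeR adjusted p = 0.0783, DESeq2 0.0189), so DESeq2 called 2 members there, and it called none for the other 2 comparisons. Over all genes DESeq2 called 536 for CD44 Low, 238 for CD44 High and 463 for CD44v6. Without RT-112 CD44 Low replicate 3 edgeR called both, PLAU at -1.41 (adjusted p = 0.0481) and PLAUR at -1.21 (adjusted p = 0.0315). PLAU also passed without RT-112 CD44 Low replicate 2 (-1.42, adjusted p = 0.0453), PLAUR without J82 CD44 Low replicate 3 (-1.20, adjusted p = 0.0417), and PLAU for CD44 High without RT-112 CD44 High replicate 2 (1.44, adjusted p = 0.0108). For CD44v6 against CD44 High the count was 0 (0.00573% of all genes). There 1 member, MMP14, had an unadjusted p under 0.05, beside 9.44% of all genes, and DESeq2 called no member.

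Lists of related genes give the surroundings of these members. The list of other plasminogen system genes is broad and also counts tissue factor (F3) and the enzyme ENO1. Of its genes, 5 of 12 tested in J82 were higher and 2 lower in CD44 High relative to CD44 Low. In RT-112 4 of 11 were higher and none lower. Of all genes, 15.7% and 16.0% were called in these comparisons. The median log2 change of the list was 0.26 in J82 and 0.13 in RT-112, beside -0.016 and 0.016 over all genes. PLAT, the tissue-type plasminogen activator, rose in both lines: from 10.3 ± 1.59 to 39.4 ± 4.998 CPM (mean ± SD, n = 3) in J82, a log2 change of 1.94 with adjusted p = 2.56e-05, and from 5.82 ± 0.267 to 14.003 ± 2.09 CPM in RT-112, a log2 change of 1.30 with adjusted p = 0.000420. In CD44v6 it was 46.6 ± 11.7 CPM in J82 and 14.7 ± 2.22 CPM in RT-112, and in parental cells 21.7 ± 3.36 and 10.1 ± 1.51 CPM. The J82 and RT-112 changes of PLAT from CD44 Low to CD44 High differed by 0.67 (adjusted p = 0.112).

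F3, tissue factor, also rose in both lines from CD44 Low to CD44 High (log2 0.67 in J82, adjusted p = 0.000359; 0.68 in RT-112, adjusted p = 0.0106). In J82 LRP1 (-1.78) and VLDLR (-1.17), receptors that clear protease and inhibitor complexes, fell and the inhibitor SERPINE2 rose (0.59), and in RT-112 ENO1, a plasminogen-binding enzyme, rose (0.81).

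Of the other 19 MMP genes, few were present. In CD44 High against CD44 Low 0 of 5 tested in J82 passed and 1 of 6 in RT-112, beside 15.7% and 16.0% of all genes. The 1 called was MMP28, which fell from 46.8 ± 1.56 to 21.5 ± 2.46 CPM (log2 -1.09, adjusted p = 0.000592). MMP28 had 7558 reads summed over the RT-112 libraries and 2 over J82. Only 3 of these 19 genes passed the read minimum in both lines, so no count of differences between the parental lines is given.

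Among other inhibitors of matrix proteases, 5 of 8 were higher and none lower in J82 CD44 High relative to CD44 Low, and 2 higher and 2 lower of 8 in RT-112, again beside 15.7% and 16.0% of all genes. The median was 1.02 in J82 and -0.03 in RT-112. In J82, SPINT2, a Kunitz inhibitor of cell surface serine proteases, rose by 1.44. In J82 CD44v6 against CD44 Low 4 of 8 rose, where 9.58% of all genes were called. SERPINB5 (maspin) rose by 2.44 at a low level, from 0.642 to 3.52 CPM. RECK, a membrane-anchored MMP inhibitor, rose by 0.58 in that comparison. TFPI2, a Kunitz inhibitor of plasmin and other serine proteases, rose by 0.67 in J82 (adjusted p = 0.00765) and fell by 1.05 in RT-112 (adjusted p = 0.00854). TIMP4 passed in both lines at very low counts, 34 against 104 reads in J82 and 0 against 49 in RT-112.

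Of the ADAM and ADAMTS genes, 2 of 15 were higher and 4 lower when J82 CD44 High was set against CD44 Low, and 2 higher and 2 lower of 12 in RT-112, where 15.7% and 16.0% of all genes were called. ADAMTS5, an aggrecanase, fell from 63.8 ± 20.2 to 12.1 ± 1.27 CPM in J82 (log2 -2.39, adjusted p = 0.000119), and ADAM8 fell in RT-112 (-1.52, adjusted p = 0.00408). Of other pericellular proteases 3 of 15 were higher and 1 lower in J82, and 2 higher and 3 lower of 16 in RT-112. The cysteine protease CTSS rose by 1.74 in J82 (adjusted p = 9.66e-05) and fell by 1.26 in RT-112 (adjusted p = 0.00989).

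A list of AP-1 and ETS subunits and RUNX2, transcription factors known to bind protease gene promoters, had 6 of 12 higher and 1 lower in J82 CD44 High relative to CD44 Low and 5 of 12 higher and none lower in RT-112, beside 15.7% and 16.0% of all genes. FOSL1 (0.95 in J82, adjusted p = 0.0466; 1.4995 in RT-112, adjusted p = 0.000537), ETV4 (1.07 and 0.46) and ETV5 (1.14 and 0.51) rose in both lines. ETS1 rose in CD44v6 against CD44 Low in both lines (1.12, adjusted p = 4.72e-06, and 0.27, adjusted p = 0.0498). In CD44 High relative to CD44 Low, JUND fell by 0.88 in J82 and RUNX2 rose by 1.11 in RT-112. Against parental in J82, FOS (2.36 and 2.49), FOSB (2.85 and 2.37), JUN (0.74 and 0.71) and JUNB (1.29 and 1.55), singled out after their values were seen, were higher both in CD44 Low and in CD44 High, and JUND was higher in CD44 Low (1.11). FOS, FOSB, JUN and JUNB were also higher in J82 CD44v6 (2.25, 2.60, 0.96 and 1.60). In RT-112, FOS was higher than parental in CD44 Low (0.52) and CD44v6 (0.56). FOSB and JUND were higher there in CD44 High (0.885 and 0.60) and CD44v6 (0.89 and 0.62).

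**Figure D5:**
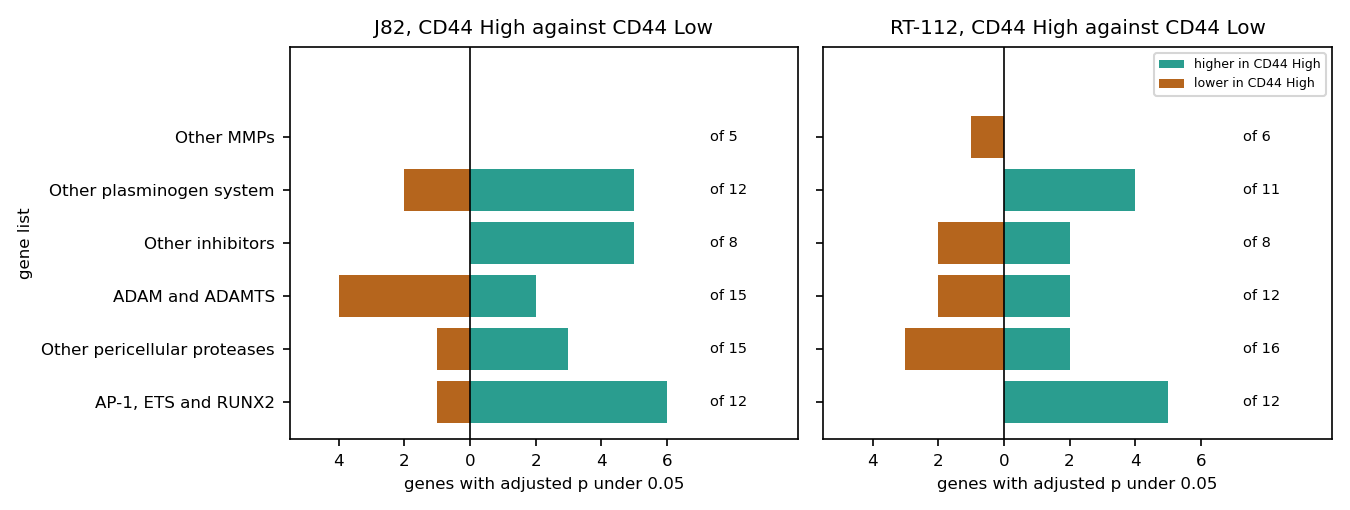
Number of genes (horizontal axis) that were higher (right of 0) or lower (left of 0) in CD44 High than in CD44 Low at an adjusted p under 0.05, for 6 lists of related genes in J82 and RT-112, with the number tested at the right of each row. The inhibitor list holds 5 higher and no lower genes in J82 and 2 of each in RT-112.

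The genes whose levels most resembled those of each member were found by Pearson's r of log2 CPM over the 24 libraries, after removing each line's mean, among 9609 genes; the points share libraries and depth, and the values describe these libraries. The closest to PLAU were CD82 (r = 0.88, Spearman's rho = 0.82) and LRRC20 (r = 0.87, rho = 0.88). TIMP3 was closest to ROR1 (r = 0.94, rho = 0.94) and ANXA8L1 (r = 0.93, rho = 0.91), and TIMP1 to EMB (r = 0.90, rho = 0.86) and NUDCD1 (r = 0.90, rho = 0.91). MMP13, over the 12 RT-112 libraries, was closest to AREG (r = 0.96, rho = 0.97) and CDCA8 (r = 0.96, rho = 0.85), and MMP1 to CXADR (r = 0.93, rho = 0.80) and ANXA1 (r = 0.90, rho = 0.86). For PLAUR (CNPPD1 and CXorf38, both r = 0.81), MMP2 (WDR75 and LOC642969, both r = 0.83), TIMP2 (SCAF1 0.78, UAP1L1 0.77) and MMP14 (CD276 0.74, STEAP3 0.73) the closest genes were less alike.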

How the data were processed

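RNA from 3 libraries in each of 8 groups was sequenced. The authors deposited 1 table of whole-number read counts per gene symbol, which was used as deposited. GRCh37, HISAT2 and StringTie are named in the submitters' processing notes; the annotation, strand setting and how counts were derived are not given in the sources used here.

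Genes were kept with edgeR 4.0.16 (filterByExpr, R 4.3.3), scaled by TMM and tested by its two-sided quasi-likelihood F-test, with Benjamini-Hochberg adjustment over all genes tested and a threshold of 0.05. Each line was fitted on its 12 libraries (15951 genes in J82, 15645 in RT-112). The line differences and the parental comparison used all 24 (17438 genes). SE is the log2 change divided by the square root of F. Fold changes and p-values for gene lists come from the same fits. The scripts were tested on simulated data. Replicates of a group differed by more than counting noise in all 24 pairs (chi-square per degree of freedom 6.03 to 58.7), so none was a repeated library. Intervals and floors cover these libraries only, and a floor of 3 reads covers counting error only.

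Alternatives were median-of-ratios and upper-quartile scaling, no count filter, DESeq2 1.42.0, fits of the 2 groups compared alone, the replicate number as a block, and leaving out each library. Named genes were the 9 members, CD44, the 2 most similar genes per member, and, from lists of related genes, those that passed in J82 and RT-112 in 1 direction and up to 4 per list with the largest change among those called in 1 line; TFPI2, CTSS, FOS, JUN and JUNB were added after their values were seen. The members and lists were chosen with earlier results of these data known. Promoters are from RefSeq (GRCh38.p14), used for sequence only, and exon lengths from GENCODE 29.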

Additional observations from a re-analysis of the deposited data

Results flagged for a closer look

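The J82 and RT-112 lines changed differently between CD44 groups in 6 tests of the difference itself, each the J82 log2 change minus the RT-112 log2 change in the edgeR fit on all 24 libraries. From CD44 Low to CD44 High the difference was 2.23 for PLAU (adjusted p = 0.000149), 0.846 for TIMP1 (adjusted p = 0.000796) and 0.808 for TIMP3 (adjusted p = 0.00296). From CD44 Low to CD44v6 it was 1.89 for PLAU (adjusted p = 0.00103), 0.600 for TIMP1 (adjusted p = 0.0157) and 0.628 for TIMP3 (adjusted p = 0.0225). PLAU was higher in all 3 J82 CD44 High and all 3 CD44v6 libraries than in any J82 CD44 Low library, while in RT-112 these groups overlapped. The TIMP3 difference in CD44v6 was lost in 3 of 12 fits that left out 1 library. The 2 sets of tests share the CD44 Low libraries of both lines.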

How the results depend on the processing

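The number of members called kept its value within 1.5 times under both other scalings in all 19 comparisons. Without a count filter it was 1 for J82 CD44v6 against parental. With DESeq2 it was 2 for RT-112 CD44 Low, 1 for CD44 High and 1 for CD44v6 against parental, and 2 for the line difference in CD44 Low against parental. In fits of the 2 groups alone it was 1 for J82 CD44v6, 2 for RT-112 CD44 Low and 2 for RT-112 CD44v6 against parental. Leaving out 1 library gave 1 to 3 members for J82 CD44 Low, 1 to 2 for J82 CD44 High and 1 to 2 for J82 CD44v6 against parental. It gave 0 to 2 for RT-112 CD44 Low and 0 to 1 for RT-112 CD44 High against parental, 1 to 3 for RT-112 CD44 High relative to CD44 Low, and, for the line difference against parental, 0 to 2 in CD44 Low and 0 to 1 in CD44 High. The cause was not tested, except that leaving out a library leaves fewer samples.

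The labels do not say what the replicate numbers share. Over all genes tested no comparison had a correlation over 0.1 for all 3 same-numbered pairs, so the samples were not treated as paired. Among genes with a mean log2 CPM of at least 3, J82 CD44 High against parental did (0.11, 0.207 and 0.188), and over all genes tested, in 3 of 13 comparisons each number matched best with its own. With the replicate number as a block the line difference in CD44 Low against parental had 1 member called, PLAUR (adjusted p = 0.0460). TIMP1 in J82 CD44 Low against parental (adjusted p = 0.0371) and MMP2 in J82 CD44 High relative to CD44 Low (adjusted p = 0.0431) also passed. The other 18 counts of members stayed within 1.5 times; over all genes the block gave 303 in place of 500 for RT-112 CD44 Low, 58 in place of 96 for RT-112 CD44v6 against parental and 2 in place of 1 for the line difference in CD44v6 against CD44 High.

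Values that changed sign were small. TIMP2 in J82 CD44v6 against CD44 Low was -0.0044 with upper-quartile scaling and -0.0020 with the block, and MMP14 there was 0.013 with the block. Leaving out 1 library gave -0.14 to 0.044 for PLAUR between parental lines, -0.25 to 0.20 for MMP14 and -0.27 to 0.16 for TIMP2 in J82 CD44v6 against CD44 Low, and -0.38 to 0.12 for the MMP14 line difference there. For RT-112 CD44 High relative to CD44 Low it gave -0.31 to 0.11 for PLAUR, -0.25 to 0.066 for MMP14, -0.074 to 0.45 for TIMP2 and -0.034 to 0.23 for TIMP3, and in CD44v6 against CD44 Low -0.28 to 0.13 for PLAUR and -0.18 to 0.40 for MMP2. A further 68 member values, none called and the smallest adjusted p 0.283, changed sign in 76 of 909 alternatives. Over all genes, counts moved by over 1.5 times in 13 of 19 comparisons with DESeq2, for example from 852 to 1488 in J82 CD44 Low against parental, in 9 of 13 fits of 2 groups alone, in 2 without a filter and in 76 of 150 fits that left out a library. With at most 11 reads per library, differences in MMP1 were not detectable in J82.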
